A study of Mus musculus with 3 samples.

Results

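Matricellular proteins are secreted into the extracellular matrix, where they tune how cells attach to it and respond to growth factors rather than bearing load. The genes described here are 10 such proteins and adhesive matrix proteins: fibronectin (Fn1), the SPARC family pair Sparc and Sparcl1, osteopontin (Spp1), periostin (Postn), tenascin C (Tnc) and the thrombospondins Thbs1, Thbs2, Thbs3 and Thbs4. They were chosen by name, and each gene's value came from the probe set with exactly 1 gene symbol. Of the 10 genes 9 were measured, out of 19938 genes with such a probe set, and Spp1 was not analysed here. Each measured gene had 1 probe set. The selection was made knowing that Tnc differs between the samples, so its differences are given as a description.

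The samples were mesangial cells, the contractile supporting cells between the capillaries of the glomerulus, from adult male CD-1 mice. All carried the transgene Tg(Meis1-EGFP)FO156Gsat, in which Meis1 regulatory sequence drives a fluorescent protein. Cells were freed from sieved glomeruli with trypsin and sorted for fluorescence, and the labels name both the glomerular and the extraglomerular mesangium as the source. There was 1 group of 3 samples, each from 1 kidney, with 1 array each. No other cell population served as a control, and therefore no conditions were compared and no test was made. Whether the 3 kidneys belonged to different animals is not stated in the labels, and part of the spread between samples may be technical.

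All values are deposited log2 signals, where a difference of 1 is a doubling of signal. A gene was counted as above background when it passed a silent-gene threshold on all 3 arrays. This was each array's 95th percentile of probe sets for families assumed to be mostly silent in kidney cells. The families were keratin-associated proteins and the olfactory, vomeronasal and trace amine receptors. This threshold was 7.48, 7.46 and 7.40 in samples 1, 2 and 3. Of 18685 named genes outside these families 58.0% passed it, and 32.7% passed the threshold raised by 1. The 8 measured mesangial markers, among them Itga8, Pdgfrb and Gata3, all passed the raised threshold. That list was chosen with earlier results of these data known. On this platform 40.2% of the 35557 probe sets carried 1 identical value on all 3 arrays, and a further 8166 had the same value on exactly 2 arrays. A standard deviation of 0 or close to it is therefore no sign of an exact measurement. Probe sets differ in affinity, so each gene was compared with the threshold and with itself in the other samples, and no gene's level is ranked against another's.

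In the mesangium the matricellular proteins are known mainly from injury and repair. SPARC and its relative loosen cell attachment, thrombospondin 1 can release TGF-beta from its latent complex, and tenascin C and periostin are matrix proteins of developing and wounded tissue. Fibronectin is the adhesive glycoprotein to which integrins attach through an Arg-Gly-Asp site. The integrin of mesangial cells, alpha 8 beta 1, is one of the receptors of such sites, and osteopontin carries one as well.

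Of the 9 measured genes 6 lay above the threshold on all 3 arrays (66.7%, beside 58.0% of named genes), a share near the background. They were Sparc, Sparcl1, Postn, Tnc, Thbs1 and Thbs2. With the threshold raised by 1, Sparc, Sparcl1, Postn and Thbs1 remained (4 of 9, 44.4%, beside 32.7% of named genes). Fn1, Thbs3 and Thbs4 did not pass on any array. Whether RNA of other kidney cells contributed to a value was not tested, and fewer cells of a type and less RNA per cell cannot be told apart in such samples.

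**Figure D1:**
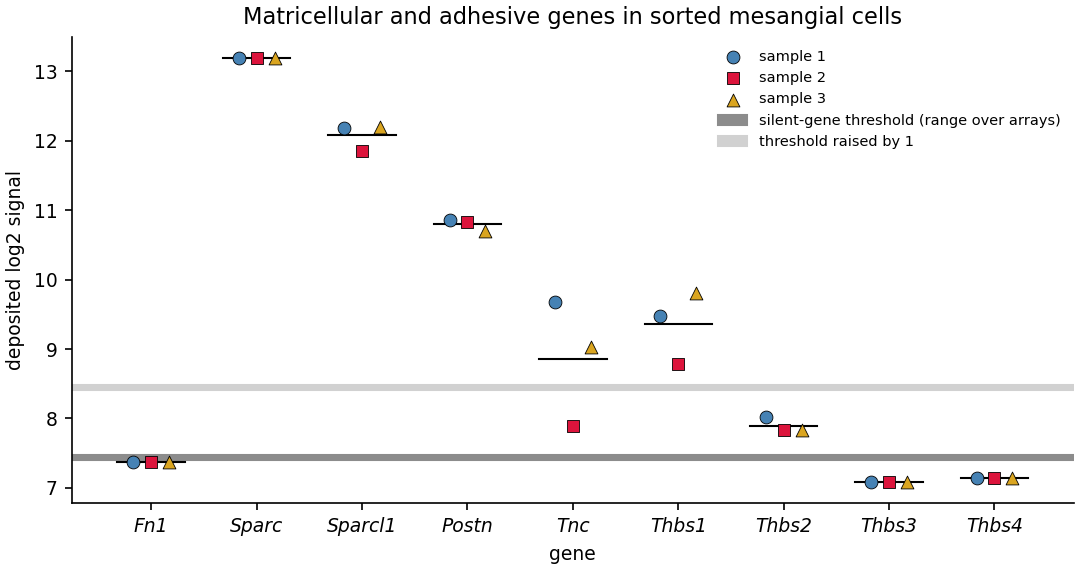
Deposited log2 signal (vertical axis) of the 9 measured genes in each of the 3 samples (points), with the mean as a black line, the silent-gene threshold as a dark band and the threshold raised by 1 as a light band. Tnc spans 7.89 to 9.67 and Thbs1 8.79 to 9.81, both lowest in sample 2, while Sparc is at 13.19 in all 3 samples and Fn1, Thbs3 and Thbs4 lie under the threshold.

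The promoter windows of 3 of these genes are shown as examples of different patterns above the threshold. Genes under the threshold are not among them. Tnc varied most between samples, Postn was well above the threshold with a range of 0.16, and Sparc carried 1 value throughout. The sequences are RefSeq windows of the mouse assembly GRCm38.p6, reaching from 250 bases before a transcript start to 50 bases after it, and run 5′ to 3′ on the strand of the gene. Capitals mark matches on either strand to TATAAA or TATATAA, the TATA-box forms searched. Tnc and Postn each have 2 listed windows, and the one holding TATATAA is shown.
Tnc, chr4:64046887-64047186, minus strand: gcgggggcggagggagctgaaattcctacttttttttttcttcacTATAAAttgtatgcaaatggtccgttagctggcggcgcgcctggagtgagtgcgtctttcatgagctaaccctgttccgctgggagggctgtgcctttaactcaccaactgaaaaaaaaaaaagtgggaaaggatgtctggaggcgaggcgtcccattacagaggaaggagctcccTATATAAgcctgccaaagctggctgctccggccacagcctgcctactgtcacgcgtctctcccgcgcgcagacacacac
Postn, chr3:54360857-54361156, plus strand: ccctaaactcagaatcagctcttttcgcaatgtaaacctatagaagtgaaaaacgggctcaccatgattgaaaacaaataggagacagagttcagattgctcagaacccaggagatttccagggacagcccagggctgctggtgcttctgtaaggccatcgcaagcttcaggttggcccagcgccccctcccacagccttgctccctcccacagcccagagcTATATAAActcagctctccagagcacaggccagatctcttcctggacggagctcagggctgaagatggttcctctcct
Sparc, chr11:55420031-55420330, minus strand: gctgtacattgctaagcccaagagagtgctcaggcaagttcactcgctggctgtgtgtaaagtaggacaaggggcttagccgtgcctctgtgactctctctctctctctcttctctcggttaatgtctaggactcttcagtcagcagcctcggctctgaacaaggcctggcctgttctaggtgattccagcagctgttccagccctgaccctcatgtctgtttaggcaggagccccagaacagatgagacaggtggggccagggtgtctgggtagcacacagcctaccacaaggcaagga
In the Tnc window TATATAA began 29 bases before the start and TATAAA 205 bases before it. In the Postn window the overlapping matches TATATAA and TATAAA began 28 and 26 bases before the start. The Sparc window held neither. Of 32851 windows of this length, 13.6% held TATAAA, 3.24% held TATATAA and 15.1% held either. Among the windows not shown, TATAAA was in the other Tnc window, the Thbs2 window and 1 of the Spp1 windows. The other Postn window, the other Spp1 window and the windows of Thbs3 and Thbs4 held neither form. Windows were listed for 7 of the 10 genes, 10 windows in all, and not for Fn1, Sparcl1 or Thbs1. The AP-1 motif TGANTCA was in none of these 10 windows and in 7.81% of all windows. The TEAD motif GGAATG was in the window of Thbs4, at 2 sites, and in 14.7% of all windows. The serum response motif called the CArG box was in none of the 10 and in 1.63% of all. A match describes these letters and is not evidence of a bound factor.

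Sparc and Sparcl1 lay far above the threshold. Sparc, which encodes a collagen- and calcium-binding glycoprotein that loosens cell attachment, had 13.19 in each sample, identical to all deposited digits. That value was between 5.71 and 5.79 above the thresholds of the 3 arrays. Sparcl1, which encodes the related protein hevin, had 12.18, 11.86 and 12.20 in samples 1, 2 and 3. Samples 1 and 3 were close together and sample 2 was lower by 0.33 and 0.34. The mean of Sparcl1 was 12.08 ± 0.19 (SD, n = 3), and 9.43% of the 10842 named genes above the threshold had as large a range. Of these 10842 genes 6571 had unequal values, and the others, identical on all 3 arrays, lower this share and the like shares below. Of 6 further members of the SPARC family 2 lay above the threshold (33.3%, beside 58.0% of named genes). Fstl1, for a secreted follistatin-like protein, had 9.86, 9.96 and 10.01 in samples 1, 2 and 3, and the proteoglycan gene Spock2, at 7.53 in each sample, was just above it. Smoc1, Smoc2, Spock1 and Spock3 were not above it, the last at 5.45 in each sample.

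Postn, which encodes a fasciclin-domain protein that binds collagen and integrins, had 10.86, 10.83 and 10.69 in samples 1, 2 and 3. Sample 3 was slightly lower than the others, by at most 0.16, and the mean was 10.79 ± 0.09 (SD, n = 3). As large a range was found in 24.7% of the 10842 named genes above the threshold. Postn was the 1 gene of the 5 with unequal values that was lowest in sample 3. The other 4, Sparcl1, Tnc, Thbs1 and Thbs2, were lowest in sample 2, Thbs2 sharing its low value with sample 3. Of the 4 genes with an unshared lowest value, 3 had it in sample 2 (75.0%). This stands beside 34.2% of the 4875 named genes above the threshold with an unshared lowest value. Tnc, chosen with its spread known, was among the 3. Among the fasciclin relatives, Tgfbi, which encodes a TGF-beta-induced adhesive protein, had 8.28, 7.99 and 8.06 in samples 1, 2 and 3. Stab2, a scavenger receptor gene, had 7.65 in each sample, less than 1 above the threshold, and Stab1, at 7.14, was not above it.

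Tnc, which encodes the multi-armed matrix glycoprotein tenascin C, had 9.67, 7.89 and 9.03 in samples 1, 2 and 3. Sample 1 was highest and sample 2 lowest, and in sample 2 the gene was 0.43 above the threshold, against 2.19 in sample 1 and 1.62 in sample 3. The signal in sample 1 was 3.44 times that in sample 2 and the signal in sample 3 was 2.20 times that in sample 2. The mean was 8.86 ± 0.90 (SD, n = 3). The range of 1.78 was matched or passed by 5 of the 10842 named genes above the threshold (0.0461%), Tnc among them. The other 4 were Cwc22, Htr1b, Gm10825 and Cxcl10. Among the 3395 such genes with a mean within 0.5 of that of Tnc, 3 had as large a range, Tnc included (0.0884%). The range rested on sample 2: without it 0.64 remained between samples 1 and 3, and without sample 1 it was 1.14. With 1 array a sample, a difference between samples cannot be told apart from a difference between arrays.

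For the other tenascin genes no difference between samples could appear, since each carried 1 value on all 3 arrays. Tnr, known from the nervous system, had 6.65, Tnn had 7.32 and Tnxb, the tenascin of connective tissue, had 7.47. None of the 3 passed the threshold on all arrays, although Tnxb passed it in samples 2 and 3, where the threshold was lower.

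Thbs1 and Thbs2 encode thrombospondins that form trimers and carry type 1 repeats, whereas Thbs3, Thbs4 and the cartilage protein gene Comp encode pentamers without them. Thbs1 and Thbs2 lay above the threshold, Thbs3 and Thbs4 did not, and Comp did by a small margin. Thbs1 had 9.47, 8.79 and 9.81 in samples 1, 2 and 3. Sample 3 was highest and sample 2 lowest, with signal in samples 1 and 3 at 1.61 and 2.03 times that in sample 2. The mean was 9.36 ± 0.52 (SD, n = 3), and every sample was more than 1 above its threshold. Its range of 1.02 was matched or passed by 60 of the 10842 genes (0.553%). Without sample 2 the difference left between samples 1 and 3 was 0.34, with sample 3 the higher. Thbs1 and Tnc thus shared their lowest sample but not their highest.

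Thbs2, whose product binds some of the same receptors as thrombospondin 1, had 8.02, 7.84 and 7.84 in samples 1, 2 and 3, and its mean was 7.90 ± 0.10 (SD, n = 3). Its range of 0.18 was matched or passed by 22.8% of the 10842 named genes above the threshold. All samples were above the threshold by less than 1, from 0.38 to 0.54. Thbs3 had 7.09 and Thbs4 7.14 in each sample, 0.31 to 0.39 and 0.26 to 0.34 below the thresholds. Comp had 7.64 in each sample. The gene just inside the threshold was Thbs2, and the gene just outside it was Fn1.

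Fn1 had 7.37 in each of the 3 samples, under the threshold by 0.11 in sample 1, 0.09 in sample 2 and 0.03 in sample 3. At the 90th percentile of the silent probe sets Fn1, Thbs3 and Thbs4 all passed, so that 9 of 9 were above, beside 68.8% of named genes. At the 99th percentile Sparc, Sparcl1, Postn and Thbs1 remained, 4 of 9, beside 35.3%. A value under the threshold means that the probe set could not be told apart from background here, not that the RNA was absent. Spp1 lies at the end of a run of genes for acidic matrix proteins that begins with Sparcl1, in the order Sparcl1, Dspp, Dmp1, Ibsp, Mepe and Spp1 in RefSeq. Of these, Sparcl1 was above the threshold and the 4 genes between it and Spp1, which serve bone and tooth mineral, were not. They had 7.37 for Dspp, 6.54 for Dmp1, 4.83 for Ibsp and 5.40 for Mepe, each identical in the 3 samples.

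**Figure D2:**
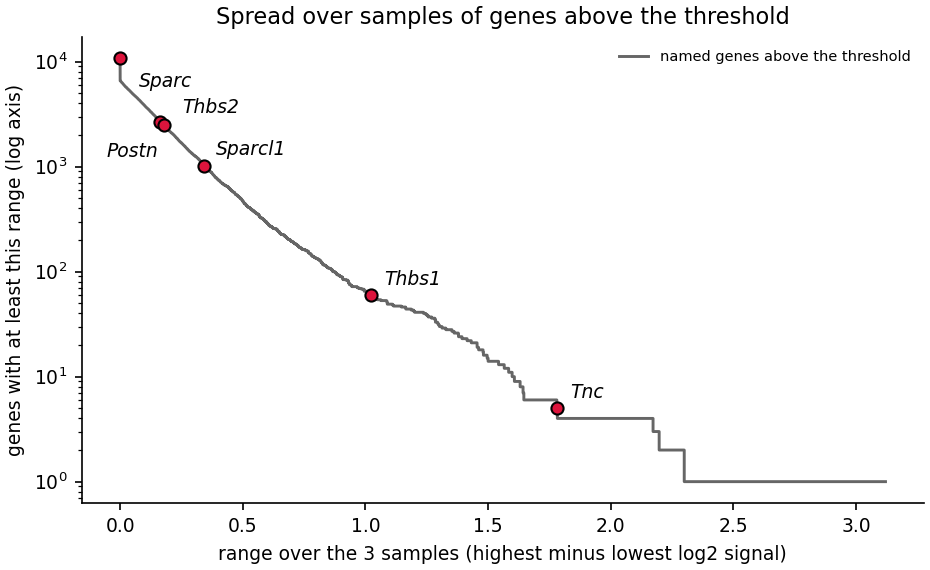
Number of named genes above the threshold (vertical log axis) with at least a given range, the highest minus the lowest log2 signal over the 3 samples (horizontal axis); red points are the 6 matricellular genes above the threshold. Tnc, with a range of 1.78, stands at the fifth place of 10842 and Thbs1, with 1.02, at place 60, while Postn lies at 0.16 and Thbs2 at 0.18.

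Of the 6 matricellular genes above the threshold, Tnc, chosen with its spread known, and Thbs1 had a range of at least 1. Without Tnc this was 1 of 5 genes, beside 0.600% of the 10842 named genes. At the other end 4 of the 9 measured genes, Fn1, Sparc, Thbs3 and Thbs4, had 1 value on all 3 arrays, a share of 44.4% beside 51.1% of named genes.

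Of 61 measured relatives, receptors and enzymes, 31 had unequal values. Sample 2 alone held the lowest value for 15 of them, sample 1 for 6 and sample 3 for 5, and for the other 5 the lowest value was shared by samples. Sample 2 thus held 57.7% of the 26 unshared lowest values, beside 34.2% of 4875 over the named genes above the threshold. The related genes in this tally included those not above the threshold, so these shares are not like for like. Of the 33 related genes above the threshold 2 had a range of at least 0.5 (6.06%, beside 4.33% of named genes above it). Ccn1, which encodes a secreted matricellular protein and is a rapid target of serum and YAP signalling, had 9.67, 8.68 and 10.01 in samples 1, 2 and 3. Plau, which encodes the protease urokinase, had 9.80, 9.40 and 9.95. Both were lowest in sample 2 and highest in sample 3, the order of Thbs1. With a range of at least 0.25, a limit chosen after the values were seen, 9 of the matricellular and related genes above the threshold took part. They were Tnc, Thbs1, Sparcl1, Tgfbi, Ccn1, Ccn2, Nid2, Plau and Adamts1, and 9 of 9 were lowest in sample 2, or 8 of 8 without Tnc, which was chosen with its values known. Of the 1683 named genes with such a range 39.6% were lowest in sample 2. All these genes were read on the same 3 arrays, so they do not count as independent observations.

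The 5 genes outside the list whose pattern over the 3 samples was nearest to that of Tnc, by the Euclidean distance between deviations from each gene's own mean, were Tfec, Cd53, AI506816, Gadd45b and Lgmn. Tfec, a transcription factor gene, was nearest at a distance of 0.34, with 9.77, 8.47 and 9.39 in samples 1, 2 and 3. The tetraspanin gene Cd53, known from leukocytes, had 12.18, 10.73 and 11.22. The stress-response gene Gadd45b had 9.27, 8.00 and 8.47, and the lysosomal protease gene Lgmn had 9.38, 8.02 and 8.44. AI506816 had 9.53, 8.05 and 8.50. All 5 were highest in sample 1 and lowest in sample 2. With 3 samples such a likeness is a weak description, and Thbs1 stood at a distance of 0.85 from Tnc.

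**Figure D3:**
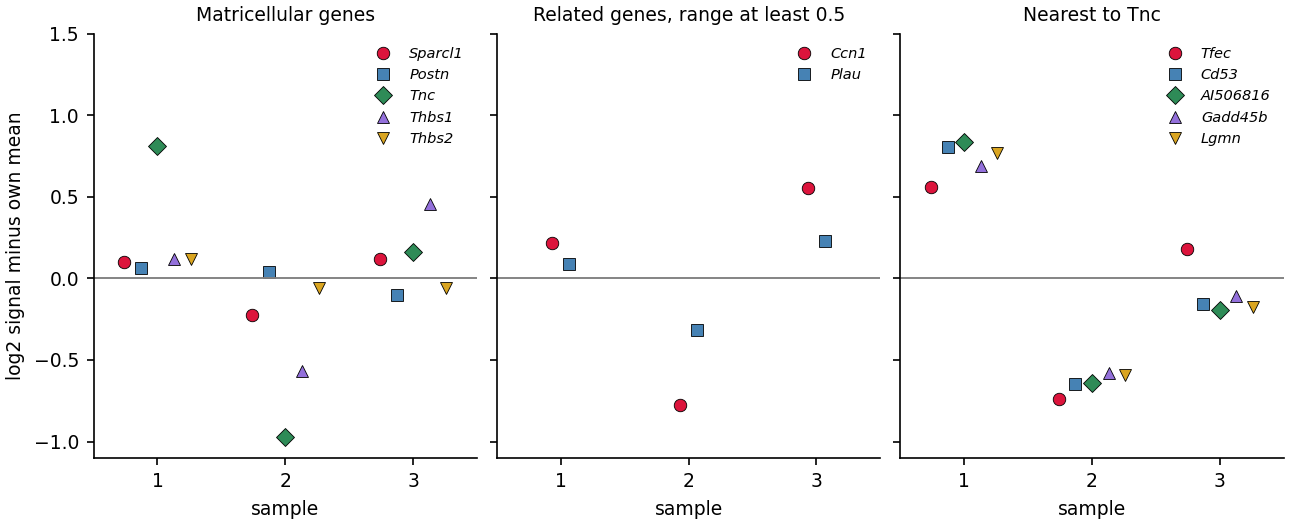
Log2 signal minus each gene's own mean (vertical axis) in samples 1, 2 and 3 (horizontal axis) for the 5 matricellular genes with unequal values, the 2 related genes with a range of at least 0.5 and the 5 genes nearest to Tnc. In sample 2 Tnc lies at -0.97 and Thbs1 at -0.57, while in sample 1 Tnc is at 0.81 and Thbs1 at 0.12.

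Marker lists of other cells were read beside these differences. Among named genes 58.0% passed the threshold and 32.7% the raised one. Of 9 macrophage markers 4 lay above the threshold and 1 above the raised threshold, Mrc1 at 11.93, 11.72 and 11.79 in samples 1, 2 and 3. Adgre1 at 5.56 and Csf1r at 6.60, each with 1 value in all samples, were not above the threshold. The mean of the macrophage list was 7.64, 7.59 and 7.62 in samples 1, 2 and 3. The platelet list, read because platelets store thrombospondin 1, had means of 7.36, 7.42 and 7.38, with 2 of 6 measured markers above the threshold and Pf4 and Ppbp not above it. The platelet marker Treml1, at 8.53 in each sample, was above the raised threshold. The smooth muscle list had means of 9.41, 9.37 and 9.57, with 6 of 7 markers above the threshold and Myh11 at 10.44, 10.19 and 10.70.

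The fibroblast list, with 5 of 8 markers above the threshold, had 7.66, 7.79 and 7.70 and so was highest in sample 2. The endothelial list, with 9 of 9 above the threshold and 4 above the raised one, had 8.78, 8.73 and 8.80. The parietal epithelial list, with 3 of 5 above it, had 8.20, 8.09 and 8.26. Of its genes, Cldn1 had 7.69, 6.67 and 7.68, lowest in sample 2, and Cd24a had 11.65, 12.29 and 12.09, highest in sample 2. The podocyte list, with 3 of 5 measured markers above it, had 8.04, 7.98 and 8.08. The mesangial list had 11.79, 11.82 and 11.79, with 8 of 8 markers above the threshold. The proximal tubule list, with 4 of 9 markers above the threshold, had 7.48, 7.35 and 7.17. The list of the later tubule segments, with 5 of 8 above it, had 7.36, 7.49 and 7.30. No marker of either tubule list passed the raised threshold on all 3 arrays. Some tubule markers passed the raised threshold on 1 or 2 arrays, or differed between samples. The uromodulin gene Umod was highest in sample 1 at 9.51, with 9.18 in sample 2 and 8.22 in sample 3. Calb1 had 7.72, 8.66 and 8.49 in samples 1, 2 and 3. Kap had 8.44, 8.51 and 7.17, and Miox had 7.40, 6.15 and 6.13. Of these 4, none was lowest in sample 2 alone, and their part in the values of Tnc and Thbs1 was not tested. The erythroid list had 7.39, 7.43 and 7.39. The smooth muscle, endothelial, podocyte, parietal and macrophage means were lowest in sample 2, with ranges of at most 0.20 over the samples. Single markers had larger ranges. Acta2, Tagln and Myh11 had ranges of 0.48, 0.38 and 0.50, and the endothelial Ehd3 and Emcn 0.45 and 0.36. All of these were lowest in sample 2 and highest in sample 3. In contrast, Cnn1, Pecam1, Cdh5 and Plvap were lowest in sample 1, Plvap jointly with sample 3, and Tek in sample 3. In both lists 3 markers were identical in all samples. The part of these cells in the values of Tnc and Thbs1 was not tested.

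The partners of these proteins were read from 9 lists of 62 genes, of which 61 were measured and Loxl2 was not analysed here. Of the 61, 33 lay above the threshold (54.1%, beside 58.0% of named genes) and 25 above the raised threshold (41.0%, beside 32.7%).

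Receptors for fibronectin, tenascin C, osteopontin, periostin and thrombospondin were among those above the threshold, 11 of 16 (68.8%, beside 58.0% of named genes). The alpha subunit gene Itga8 had 12.94, 12.96 and 12.97 in samples 1, 2 and 3. Its partner Itgb1 had 12.37, 12.41 and 12.46. Itga9, whose integrin binds tenascin C and osteopontin, had 10.33 in each sample, and Itgav had 10.47, 10.33 and 10.51. Itga5, the alpha subunit of the classical fibronectin receptor, had 7.82 in each sample and lay above the threshold by less than 1. The beta subunits divided, since Itgb5 had 9.49 ± 0.01 (SD, n = 3), while Itgb3 at 6.85, Itgb6 at 5.88 and Itgb8 at 6.51 were not above the threshold.

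The thrombospondin receptors divided as well. Cd47, which binds the carboxyl end of thrombospondins, had 12.83, 12.94 and 12.94 in samples 1, 2 and 3. Cd36, which binds the type 1 repeats of thrombospondins 1 and 2, had 7.03, 6.91 and 7.05 and was not above the threshold in any sample. Lrp1, an endocytic receptor that clears thrombospondins, had 11.07, 10.88 and 10.90. The osteopontin and hyaluronan receptor gene Cd44 had 6.21 in each sample and was not above the threshold. Among the 16 receptors the largest range was 0.19, and 5 carried 1 value on all 3 arrays. Small ranges were usual in these data. Named genes above the threshold had a median range of 0.03, and 0.600% of them had a range of at least 1. Of these 10842 genes 6571 had unequal values, and the others, identical on all 3 arrays, lower the median. The range was 1.78 for Tnc, chosen with its spread known, and 1.02 for Thbs1.

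**Figure D4:**
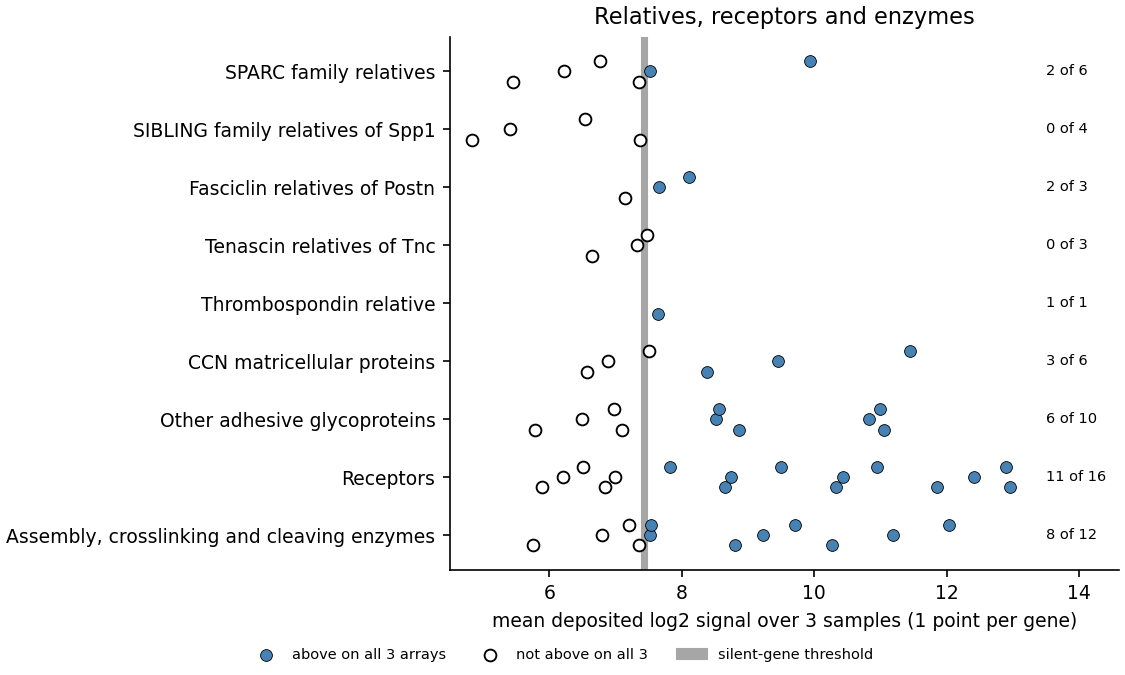
Mean deposited log2 signal over 3 samples (horizontal axis) of the 61 measured relatives, receptors and enzymes, 1 point per gene, by list; filled points passed the silent-gene threshold (grey band) on all 3 arrays and open points did not, with the counts at the right. No SIBLING or tenascin relative passed, while 11 of 16 receptors and 8 of 12 enzymes did (68.8% and 66.7%, beside 58.0% of named genes).

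Among the CCN proteins, a matricellular family of growth regulators, 3 of 6 lay above the threshold. Ccn2, known as connective tissue growth factor, had 11.50, 11.29 and 11.56 in samples 1, 2 and 3, Ccn1 had the values given above, and Ccn5 had 8.38 in each. Ccn3 had 6.56 in each sample and Ccn6 averaged 6.89, neither above the threshold, and Ccn4 passed it in samples 1 and 3 but not in sample 2. Of 10 other adhesive glycoproteins 6 lay above the threshold (60.0%, beside 58.0% of named genes). The same 6 lay above the raised threshold, which 32.7% of named genes passed. The basement membrane linker gene Nid1 had 10.83 ± 0.01 and its relative Nid2 8.87 ± 0.23 (SD, n = 3). Nephronectin (Npnt), a ligand of the alpha 8 integrin, had 8.51 in each sample, and Mfge8 had 11.06 ± 0.05 (SD, n = 3). Vitronectin (Vtn), at 6.49, and Edil3, at 5.78, were not above the threshold.

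Of 12 measured enzymes that assemble, crosslink or cleave these proteins, 8 lay above the threshold (66.7%, beside 58.0% of named genes). The protease gene Adamts1 had 12.07, 11.84 and 12.21 in samples 1, 2 and 3. The gelatinase gene Mmp2 had 11.27, 11.11 and 11.21. The membrane protease gene Mmp14 had 10.26, 10.27 and 10.26, with samples 1 and 3 identical. Bmp1, for a proteinase that trims several matrix precursors, had 9.22 ± 0.02 (SD, n = 3). Tgm2, whose product crosslinks fibronectin, had 7.53 in each sample and lay just above the threshold. Lox, for the enzyme that crosslinks collagen and elastin, had 5.76 in each sample, and Mmp3, Mmp7 and Mmp9 were not above the threshold either.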

How the data were processed

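RNA of 3 samples of sorted mesangial cells was amplified, labelled with biotin and hybridised to 1 Affymetrix mouse gene array each, per the labels' protocols. Per the submitters' processing notes the authors used Affymetrix Expression Console, and they deposited log2 signals per probe set. Its version, its background correction and how probes were summarised are not given in these sources. The base of the log was inferred from the highest value of 14.39. The array medians were 7.53, 7.56 and 7.54. Any further scaling or centring is unknown, and precision is limited by the number of arrays.

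Of 35557 probe sets 21789 had 1 gene symbol in the platform annotation, 1621 had several and named no gene, and 12147 were not listed. Symbols were updated by Entrez number with the RefSeq table of GRCm38.p6 for 21698 probe sets. Per gene the probe set with the highest mean was used. The threshold came from 1269 silent probe sets, of whose 1253 genes 4.71% passed on all 3 arrays. Python 3.11.15, numpy 2.4.6 and pandas 2.3.3 were used.

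The genes and lists were chosen with earlier results of these data known. All genes of the list are named, with the highest and lowest mean of each related list, related genes with a range of at least 0.5 and the 5 genes nearest to Tnc. The highest and lowest mean only decide which genes are named and give no order of amount. The other genes named were chosen after their values were seen. Alternatives changed the percentile, the silent families, the arrays required, the probe set rule, the scaling and the samples.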

Additional observations from a re-analysis of the deposited data

How the results depend on the processing

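Under the 11 alternatives the count of matricellular genes above the threshold ranged from 4 at the 99th to 9 at the 90th percentile of the silent probe sets, and was 6 under the other 9. Some of these could not change the count. Centring moves values and threshold together, and averaging probe sets has no effect where each gene has 1. Leaving out a sample can only keep or raise a count that requires all arrays. At the threshold raised by 1 the count was 3 at the 99th percentile and 5 for the mean of the arrays or without sample 2. Related genes above the threshold ranged from 26 at the 99th to 42 at the 90th percentile, and otherwise from 33 to 35. The range of Tnc was 1.81 with arrays centred on their medians, 1.80 after quantile normalization, and between 0.64 (without sample 2) and 1.78 with 1 sample left out. No matricellular gene's mean moved by more than 0.01 while all samples were kept, or by more than 0.49 when 1 was left out. Centring and averaging probe sets could not move these means. No paired analysis was possible because there was 1 group.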
